A study of Drosophila melanogaster with 4 samples.

Results

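The genes described here are the cytoplasmic ribosomal protein genes of *Drosophila melanogaster* and their paralogs, chosen by symbol alone: every gene whose symbol starts with RpL or RpS followed by a digit or P. There were 92 of them among 14240 genes, 38 of the small subunit (RpS) and 54 of the large subunit (RpL). The study compared neural stem cells (NSCs) while quiescent, in stage 17 embryos, and after reactivation, in larval brains at 24 h after larval hatching (ALH). GFP on the cell membrane was used to sort cells from dissociated tissue, which were sequenced in 10x Chromium droplets, with 2 libraries per stage. All 4 libraries carried the same transgenes, *wor*-GAL4 and UAS-mCD8-GFP, and no library without them was analysed here. The driver is active in NSCs, and the labels list NSCs, neurons and glia among the sorted cells, so NSCs had to be told from the rest by their RNA. The labels give the 10x chemistry as version 2 for stage 17 library 1 and as version 3 elsewhere.

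A ribosome is built from ribosomal RNA and a fixed set of ribosomal proteins, and growing cells spend much of their transcription on these genes. Quiescent NSCs of the fly are small, and they enlarge before they divide again under insulin and TOR signalling, a pathway that also acts on translation. Several fly ribosomal proteins are encoded by a pair of genes, and in some pairs a partner is known mainly from the germ line, so the balance within a pair can mark a tissue or a stage.

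In droplet sequencing each RNA molecule caught is counted once, from its 3′ end, by a unique molecular identifier (UMI), so counts do not grow with gene length. Levels below are in CPM, the UMIs of a gene per 1000000 UMIs of a class in a library. The libraries held 2219533 to 53458971 UMIs, and the stage 17 libraries were the shallower ones. After filtering on gene number and mitochondrial RNA there remained 409 and 1220 cells at stage 17, with 923 and 1015 at 24 h ALH. Clusters were found without the ribosomal protein genes and named from marker genes. The NSC-like class (*dpn*, *wor*, *mira*) held 26 cells in each stage 17 library, 513 in 24 h ALH library 1 and 337 in library 2. The neuron-like class (*elav*, *nSyb*) held 212 and 647 cells at stage 17, with 175 and 259 at 24 h ALH.

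The class names were checked against markers. The defining NSC genes *dpn* and *wor* were present in the NSC-like class of all 4 libraries, with 91 and 108 UMIs of *dpn* at stage 17. The neuron gene *nSyb* was not absent from it. It stood at 93.7 and 430 CPM (9 and 125 UMIs) at stage 17. At 24 h ALH it stood at 8.14 and 8.86 CPM (299 and 179 UMIs in far larger sums). The 13 neuron markers summed to 19.2 and 36.2 of every 10000 NSC-like UMIs at stage 17 against 3.22 and 3.36 at 24 h ALH, and 1 of the 13 was at 0 in stage 17 library 1. The 10 progenitor markers summed to 99.2 and 92.9 against 18.1 and 19.1, with none at 0. The 7 heat and stress genes went the other way, from 29.7 and 25.6 to 69.3 and 73.7. The part of these differences in the results was not tested.

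Some stage 17 cells call for care. Stage 17 library 2 shared 12 cell barcodes with 24 h ALH library 1 and 1 with library 2. Of its 26 NSC-like cells, 11 were such cells, with 2572 to 3156 UMIs each, while their partners held 177043 to 243915. Another 2 cells of more than 50000 UMIs held 40.4% of that library's NSC-like UMIs, and 102 of its 125 *nSyb* UMIs. The share of ribosomal protein UMIs and the counts of genes between stages are given with and without these cells. Of the stage calls named below in NSC-like cells, none was lost without the shared barcodes, and those of *RpLP0*, *RpLP2* and *RpS5a* were lost without the 2 deepest cells (adjusted p = 0.0988, 0.0819 and 0.0741, edgeR). Without either set of cells 84 and 85 genes again passed as higher in the NSC-like class at stage 17 and 24 h ALH.

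Among the 6 classes formed by clustering, NSC-like cells gave the largest share of their UMIs to ribosomal protein genes in every library. These genes made up 33.3% of NSC-like UMIs in both stage 17 libraries, 38.3% in 24 h ALH library 1 and 39.1% in library 2. In neuron-like cells the shares were 13.0% and 9.41% at stage 17 against 17.5% and 17.4% at 24 h ALH. The NSC-like share exceeded the neuron-like share in all 4 libraries, and in both classes the stages did not overlap. The means were 33.3% ± 0.0204 against 38.7% ± 0.518 in NSC-like cells and 11.2% ± 2.52 against 17.4% ± 0.0694 in neuron-like cells (SD, n = 2 libraries). An exact two-sided permutation test of 2 libraries against 2 gave p = 0.33 for each class, the smallest p this design allows.

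The direction was the same in the other classes. A cluster led by *hdc*, *goe* and *Thor* had 19.97% and 16.0% at stage 17 against 31.6% and 33.1% at 24 h ALH. This cluster was not free of NSC genes. At stage 17 it held 61 and 133 UMIs of *dpn* and 48 and 119 of *wor*. Its *dpn* level was 222 and 121 CPM, between those of the NSC-like class (948 and 372) and of neuron-like cells (7.60 and 7.36). Its *nSyb* level was 1155 and 1466 CPM. Whether it holds stage 17 NSCs was not tested, so 33.3% describes the NSC-like class alone. Epidermis/trachea-like cells had 22.4% and 20.5% against 29.5% and 32.2%, and glia-like cells, of 6 to 17 per library, had 17.3% and 11.1% against 29.4% and 24.1%. The epidermis/trachea-like class was not free of glia: the glial gene *repo* stood at 101 and 34.5 CPM in it at stage 17 and at 58.1 and 76.4 at 24 h ALH, beside 80.3, 42.03, 71.8 and 189 in the glia-like class. At the finer resolution its 166 cells split into an epidermis/trachea-like cluster of 90 and a glia-like cluster of 76 cells, so these 2 classes are not a contrast of separate cell types. Muscle-like cells, of 2 to 11 per library, overlapped between the stages, at 31.3% and 20.7% against 34.8% and 27.4% (exact permutation p = 0.67). A share falls when other RNA rises, so less ribosomal protein RNA per cell and more of other RNA cannot be told apart.

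The stage difference was also present inside single clusters. The 2 NSC-like clusters with at least 10 cells at both stages had 34.2% to 35.6% at stage 17 and 37.4% to 42.3% at 24 h ALH. For the larger of them the stage 17 value came from library 2 alone (14 cells, 34.3%), as library 1 had 6 cells in it. The 4 neuron-like clusters with such counts had 8.54% to 13.2% against 15.8% to 22.5%. Another neuron-like cluster drew 192 cells from stage 17 library 2, with a share of 9.19%.

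The stage 17 libraries differed from each other outside the NSC-like class. In neuron-like cells the library of version 2 chemistry had the larger share (13.0%), and the chemistry and the library cannot be told apart. With every cell thinned to 1000 UMIs the NSC-like shares were 33.7% and 31.9% against 38.5% and 38.8%, so the stages also stood apart at equal UMIs per cell, though the sums still differed in their number of cells. Without the shared barcodes stage 17 library 2 gave 33.1% in NSC-like cells, and without its 2 deepest cells 34.9%, still below both 24 h ALH libraries. A gate on *dpn* and *wor* in place of clusters took in 33 and 42 cells at stage 17. Its shares were 26.6% and 20.5% against 37.7% and 38.3%. At stage 17 these lay below the shares of the muscle-like class (31.3% and 20.7%), so the first rank of NSC-like cells at that stage depends on how they are chosen.

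**Figure D1:**
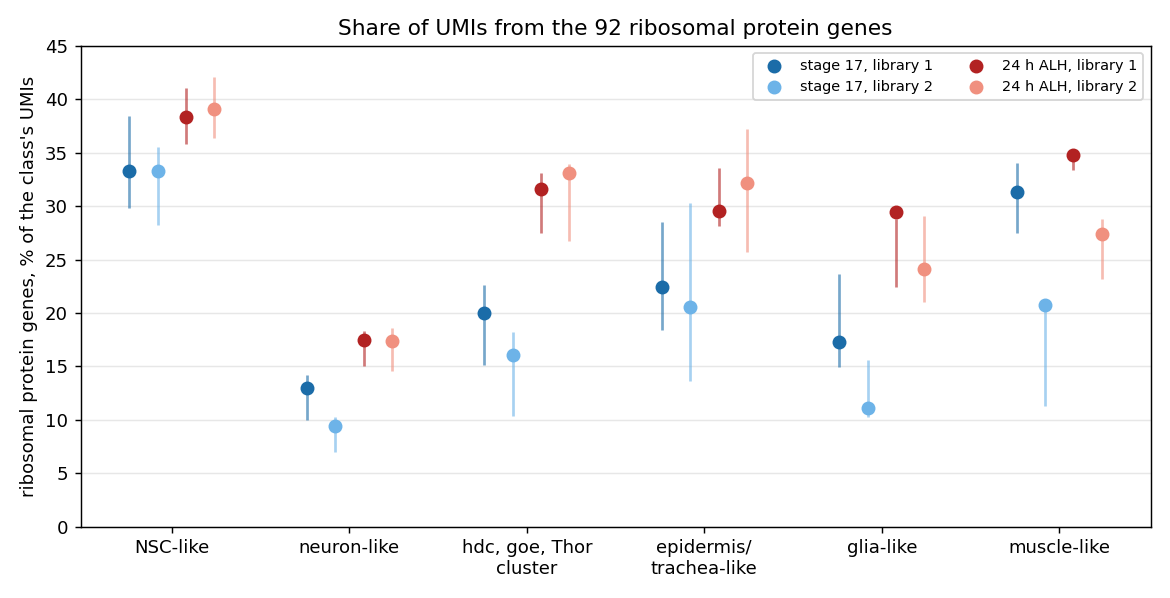
Share of UMIs from the 92 ribosomal protein genes (y axis, percent) in 6 cell classes, 1 point per library, with lines from the lower to the upper quartile of single cells. NSC-like points lie at 33.3% at stage 17 and at 38.3% and 39.1% at 24 h ALH, above the neuron-like points of the same library.

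NSC-like cells had higher levels of nearly every measured ribosomal protein gene than neuron-like cells of the same libraries. Of 92 genes, 85 passed the filter on low counts, and at stage 17 the NSC-like level was higher for 84 of the 85 and lower for none (edgeR, adjusted p under 0.05). Among all 7860 genes tested, 18.2% were higher and 25.5% lower. The median difference of the 85 was 1.17 on the log2 scale, against -0.25 for all genes. The exception was *RpL40*, which encodes a ribosomal protein fused to ubiquitin. Its levels were 4072 and 2544 in NSC-like cells against 2435 and 1104 in neuron-like cells, a fitted difference of 0.53 ± 0.27 (SE, adjusted p = 0.123, edgeR).

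At 24 h ALH all 85 genes tested were higher in NSC-like cells, where 41.2% of all genes were higher and 34.2% lower. Their median difference was 1.38, against 0.17 for all genes. The subunits gave like values: medians of 1.08 (small) and 1.24 (large) at stage 17, and 1.37 and 1.40 at 24 h ALH. All these counts come from 1 model with the library as a block, in which every library adds to the estimate of spread. Leaving out 24 h ALH library 1 or library 2 left 44 genes past the threshold at stage 17 in each case, and 18 or 22 at 24 h ALH, all of them higher.

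Of the genes chosen for their role, all but *RpL40* followed this pattern. *RpLP1*, a protein of the acidic stalk that binds elongation factors, stood at 7717 and 7633 in NSC-like cells at stage 17 and at 2009 and 1474 in neuron-like cells. The NSC-like libraries lay close together and far above the neuron-like ones, a difference of 1.71 ± 0.28 (adjusted p = 5.12e-05, edgeR). *RpS6*, the substrate of S6 kinase, was at 1645 and 2830 against 715 and 998, and the difference was 0.92 ± 0.26 (adjusted p = 0.00785, and 0.126 and 0.127 without 24 h ALH library 1 or library 2). *RpL41*, which encodes a very short basic peptide, was the most abundant of the 92 in both 24 h ALH libraries of both classes, at 10691 and 8451 in NSC-like cells.

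Ribosomal proteins whose symbols fall outside the rule also passed the test. The gene *sta*, which encodes the small-subunit protein RpSA, was higher in NSC-like cells by 1.43 ± 0.29 at stage 17 and by 1.55 ± 0.28 at 24 h ALH. *Rack1*, a scaffold on the small subunit, was higher by 1.04 ± 0.26 and 1.28 ± 0.25 (largest adjusted p of these 4 tests 0.00267, edgeR).

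Other genes of the translation machinery differed in how far they shared the pattern. Of 33 ribosome biogenesis genes, 28 were higher and none lower at stage 17 (median 2.65), and 30 were higher at 24 h ALH (median 1.92). Of 46 translation factors, 23 were higher and 3 lower at stage 17 (median 0.64), and 40 and 3 at 24 h ALH (median 1.40). Of 72 mitochondrial ribosomal protein genes, 8 were higher and 3 lower at stage 17 (median 0.16), and 56 and 1 at 24 h ALH (median 0.57). At stage 17 those calls made up 15.3% of the 72, where 18.2% of all genes were higher and 25.5% lower. At 24 h ALH 41.2% of all genes were higher and 34.2% lower.

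**Figure D2:**
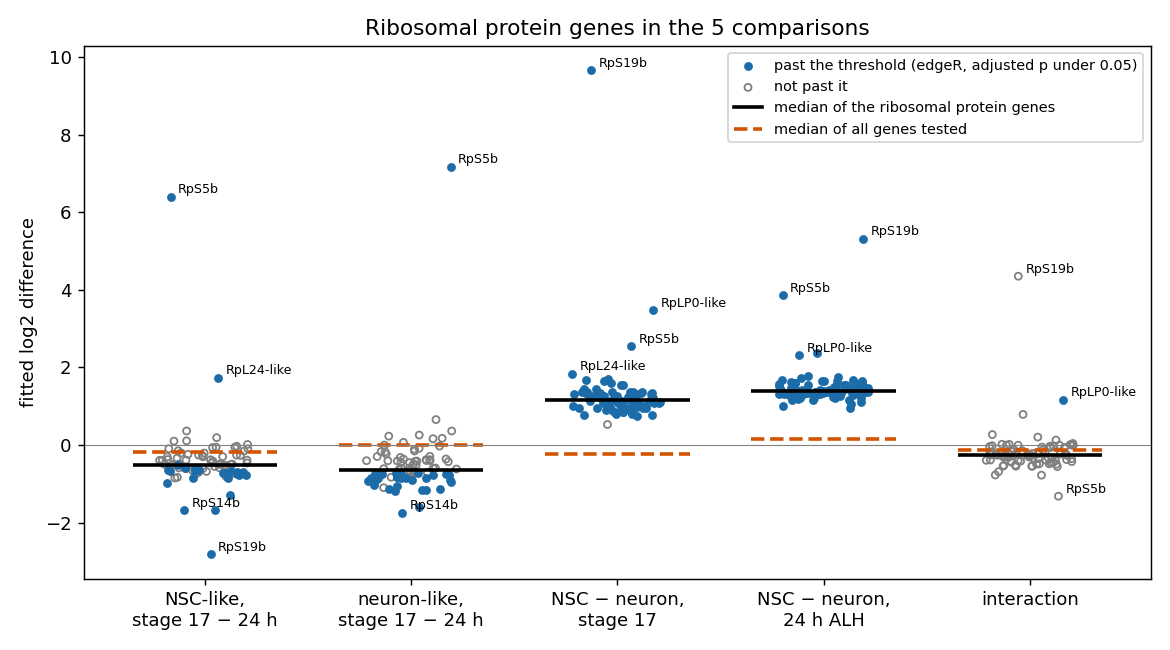
Fitted log2 differences (y axis) of the ribosomal protein genes that passed the filter, in 5 comparisons, with filled points past the threshold. Black lines are their medians and dashed lines the medians of all genes tested. Both comparisons of NSC-like with neuron-like cells have their cloud well above the dashed line, at medians of 1.17 and 1.38. The *RpS19b* point at 9.66 rests on 5 UMIs against 0, so its height depends on how zeros are handled in the fit.

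With the classes formed by clustering, the differences between the stages were smaller than those between the classes, and fewer genes passed. The order of sizes depended on how NSC-like cells were chosen. With the marker gate the median was -1.12 between stages in NSC-like cells and 0.87 between classes at stage 17. With clustering, 2 of the 85 genes were higher at stage 17 in NSC-like cells and 23 lower. Of all 7241 genes tested, 17.2% were higher and 16.7% lower. The median of the 85 was -0.51, against -0.19 for all genes, and 70 of them lay below that median. With no filter on low counts this order turned. The medians were then -0.73 and -0.88, and of 91 ribosomal protein genes 29 lay below the median of all genes and 62 above. In unscaled levels 54 genes had both stage 17 libraries below both 24 h ALH libraries, and 8 had them above, while of all genes tested 36.5% lay below and 32.9% above. The number of calls moved with the processing: it was 2 higher and 36 lower without the shared barcodes, 2 and 5 without the 2 deepest cells, and 2 and 3 with cells thinned to 1000 UMIs. The number passing among all genes moved as well. With thinned cells 162 of 2356 genes passed, beside 5.88% of the ribosomal protein genes. The count of lower genes was 65 without stage 17 library 1, 68 without stage 17 library 2, 2 without 24 h ALH library 1 and 3 without 24 h ALH library 2. Such a fit has 1 library in a stage and takes its spread from the other stage alone, and across genes the NSC-like sums correlated at 0.99 between the 24 h ALH libraries and at 0.68 between those of stage 17.

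In neuron-like cells 1 of 84 genes was higher at stage 17 and 32 were lower, where 11.8% of all 7226 genes were higher and 18.7% lower. The median of the 84 was -0.65, against 0.00 for all genes. In unscaled levels 68 genes had both stage 17 libraries below both 24 h ALH libraries, and 1 had them above, while of all genes tested 39.5% lay below and 29.1% above. Markers of other cells moved in this class as well: the 10 glia markers summed to 8.58 and 9.33 of every 10000 UMIs at stage 17 against 2.48 and 2.37, and the 10 progenitor markers to 16.9 and 17.9 against 9.74 and 9.15, and their part in the result was not tested. Of the 23 genes lower in NSC-like cells, 14 (60.9%) were also among the 32 lower in neuron-like cells (43.8% of those), and both counts come from the same 4 libraries. Leaving out either 24 h ALH library left 1 gene lower, while 80 were lower without stage 17 library 1 and 54 without library 2.

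Among the genes chosen for their role, the stalk protein *RpLP0* had 2885 and 3581 CPM in NSC-like cells at stage 17 against 4699 and 4738 at 24 h ALH. The stages did not overlap, and the gene fell by 0.77 at stage 17 relative to 24 h ALH (SE 0.22, adjusted p = 0.0291, edgeR). *RpLP2*, the other small stalk protein, fell by 0.68 ± 0.18 (adjusted p = 0.022). *RpS30*, made as a fusion with a ubiquitin-like protein, had 2020 and 2407 against 3645 and 3850 and fell by 0.99 ± 0.21 (adjusted p = 0.0114). In neuron-like cells *RpLP0*, *RpLP1*, *RpLP2*, *RpS30* and *RpL41* were lower at stage 17, by 1.16, 0.74, 0.85, 0.86 and 1.13 on the log2 scale. Every call of this paragraph was lost without either 24 h ALH library, with adjusted p from 0.0954 to 0.367. The NSC-like calls of *RpLP0* and *RpLP2* were also lost with cells thinned to 1000 UMIs (0.120 and 0.110), with no maximum of genes (0.148 and 0.144), with the 10% mitochondrial limit (0.131 and 0.114) and without the 2 deepest cells.

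The other role genes did not pass the test between stages in NSC-like cells. *RpLP1* was at 7717 and 7633 against 7604 and 7962, so its libraries overlapped (fitted difference -0.26 ± 0.16, adjusted p = 0.253). *RpL10*, which joins late in large-subunit assembly, had -0.31 ± 0.17 (adjusted p = 0.192), and *RpL22* -0.42 ± 0.18 (adjusted p = 0.121). *RpS6* and *RpL40* had -0.61 ± 0.31 and -0.52 ± 0.22, and *RpL41* and *RpS27A*, the other ubiquitin fusion, had -0.49 ± 0.22 and -0.50 ± 0.17 (adjusted p from 0.0526 to 0.166 for these 4). In neuron-like cells *RpL9* and *RpL17*, of the large subunit, were among the 4 with the largest fall, by 1.18 ± 0.26 and 1.17 ± 0.20 (adjusted p = 0.0254 and 0.0146), and both calls were lost without either 24 h ALH library (adjusted p from 0.126 to 0.177).

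Mitochondrial ribosomal protein genes had lower medians than the cytoplasmic ones at stage 17. Of 72 tested, 46 were lower in NSC-like cells (median -1.19) and 35 in neuron-like cells (median -0.97), and none was higher in either. Translation factors had 3 higher and 14 lower in NSC-like cells (median -0.56) and 4 and 11 in neuron-like cells (median -0.22). Ribosome biogenesis genes had 4 higher and 6 lower in NSC-like cells (median -0.19, and also -0.19 for all genes), and 1 and 24 in neuron-like cells (median -1.34, against 0.00). Of all genes 17.2% were higher and 16.7% lower in NSC-like cells, and 11.8% and 18.7% in neuron-like cells. The biogenesis genes in NSC-like cells were thus near the values of all genes. *sta* and *Rack1* were lower at stage 17 in both classes, by 0.73 and 0.67 in NSC-like cells and by 0.96 and 0.80 in neuron-like cells.

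The stage difference was also compared between the classes, by the interaction of class and stage. Of 85 genes 1 passed, *RpLP0-like*, and its class difference was greater at stage 17. Among all genes 8.74% had a positive and 5.34% a negative interaction past the threshold. The median of the 85 was -0.25, against -0.14 for all genes, and the sign of that median turned with the scaling (0.44 with library size alone). Relative to all genes the median was -0.11, with -0.08 for library size alone, -0.15 for DESeq2 and -0.45 for the marker gate. It was 0.30 with no filter on low counts and 0.035 with cells thinned to 1000 UMIs, so this sign turned with the processing too.

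Within paralog pairs the balance of several differed between the stages. Pairs were formed from the symbols, and the balance is the share of the pair's UMIs from the less expressed partner, with exact 95% Clopper-Pearson intervals that cover counting error only. Each exact permutation test of 2 libraries against 2 on a balance whose stages did not overlap gave p = 0.33, the smallest possible. The pair *RpS5a* and *RpS5b* was picked out with earlier results known, so its balance is given as a description.

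*RpS5b*, on chromosome 3R (14900432 to 14901563, dm6), encodes a close relative of the small-subunit protein made from *RpS5a* and is known for its expression in the ovary, while *RpS5a* lies on X (17143588 to 17148264). In NSC-like cells *RpS5b* made up 14.7% (interval 11.1% to 18.9%) and 10.9% (8.73% to 13.4%) of the pair at stage 17, against 0.0699% and 0.143% at 24 h ALH. These are 50 of 340, 78 of 714, 88 of 125912 and 105 of 73252 UMIs, and the stages were far apart. In neuron-like cells the shares were 4.13% and 6.85% at stage 17, against 1 UMI of 4331 and 1 of 4665 at 24 h ALH.

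The level of *RpS5b* in NSC-like cells was 521 and 269 CPM at stage 17 against 2.40 and 5.20 at 24 h ALH. The fitted log2 difference was 6.39 ± 0.53 (adjusted p = 0.000848, edgeR) and ran from 5.83 to 7.12 over 19 alternatives. The alternatives rework the same 4 libraries, and the pair was picked with earlier results known, so these values are no independent check. Summed over libraries the *RpS5b* level was 97.7 times higher (counting interval 77.5 to 123). In neuron-like cells it was 47.3 and 41.5 against 0.305 and 0.284, and the ratio of the sums, 389 against 2 UMIs, was 144 (counting interval 39.5 to 1191). *RpS5a* was lower at stage 17 in NSC-like cells, with 3020 and 2190 against 3425 and 3620. It fell by 0.70 ± 0.19 (adjusted p = 0.0289, edgeR). That call was lost without 24 h ALH library 1 or library 2 and in 6 other alternatives. Most ribosomal protein genes fell as well: of the 85 tested 78 were negative, with a median of -0.51 and a lower quartile of -0.70. The interaction for *RpS5b* did not pass (-1.32 ± 0.92, adjusted p = 0.381).

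In stage 17 library 2 the 11 NSC-like cells with shared barcodes held 1 of the 78 *RpS5b* UMIs, and the 2 deepest cells held 18. The germ line marker *vas* had 9 and 3 UMIs in the stage 17 NSC-like sums. That is 93.7 and 10.3 CPM, against 0.0817 and 0.445 CPM at 24 h ALH. At stage 17 *nos* had 0 and 1 UMIs, and *aub* had 0 in both sums. At 24 h ALH *aub* stood at 3.48 and 5.79 CPM, a level at which sums as small as those of stage 17 can hold 0 UMIs. The 9 germ line markers summed to 1.15 and 0.241 of every 10000 UMIs at stage 17 (6 and 5 of them at 0) against 0.195 and 0.245 at 24 h ALH, and their part in the result was not tested.

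The *RpS5b* share of UMIs was higher at stage 17 in all 6 classes. In the *hdc*, *goe*, *Thor* cluster *RpS5b* was 12.9% and 14.7% of the pair at stage 17 against 0.124% and 0.126% at 24 h ALH. The epidermis/trachea-like class, mixed with glia as described, had 8.08% and 10.5% against 0.249% and 0.150%, and glia-like cells 7.41% and 7.80% against 0.189% and 0.505%. Muscle-like cells had 14.6% and 14.9% against 0 of 152 and 0 of 123 UMIs, with upper interval limits of 2.40% and 2.95%. Neuron-like cells had the lowest share of the 6 in both stage 17 libraries. Their intervals (3.13% to 5.33% and 6.16% to 7.60%) did not meet those of NSC-like cells but overlapped those of glia-like cells (3.25% to 14.1% and 3.96% to 13.5%). RNA of neurons was found outside neurons at stage 17: *nSyb* stood at 546 and 1359 CPM in glia-like cells (1994 and 2357 in neuron-like cells) and at 202 and 431 in the epidermis/trachea-like class, against 0 in glia-like cells of both 24 h ALH libraries. UMIs of *RpS5b* in a class therefore need not all come from its cells, and the part of such RNA was not tested.

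**Figure D3:**
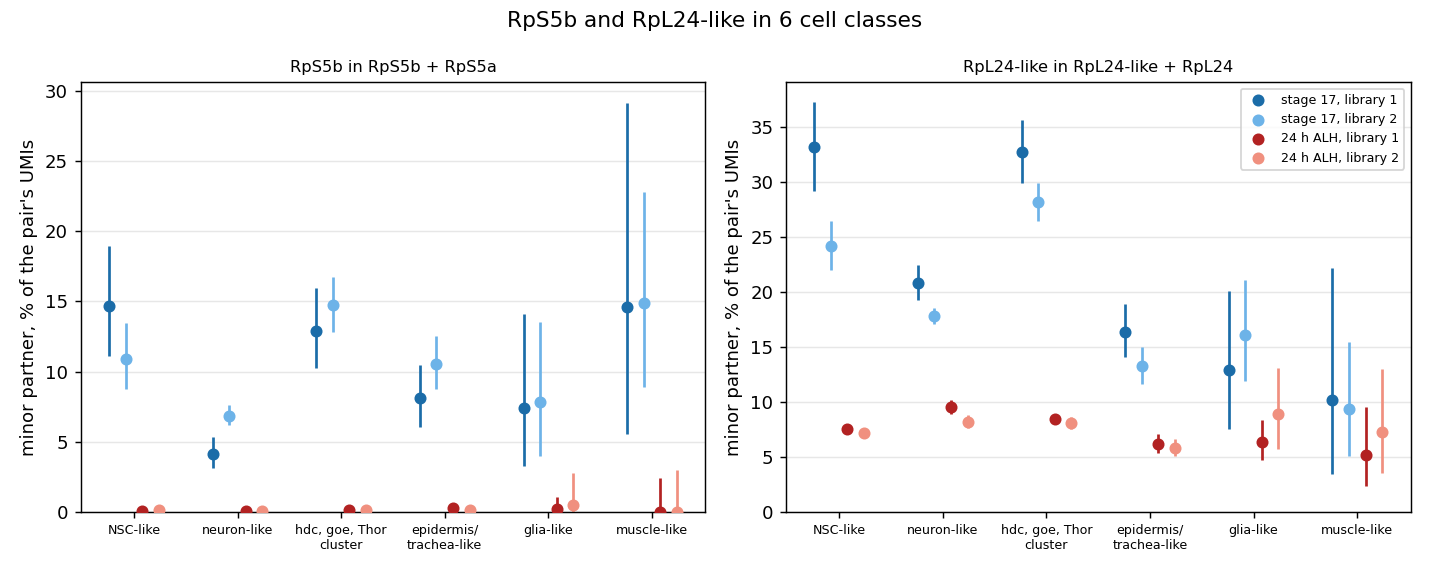
Share of *RpS5b* in its pair (left) and of *RpL24-like* in its pair (right), in percent, for 6 cell classes; points are libraries and lines exact 95% intervals of counting error. For *RpS5b* the stage 17 points lie between 4.13% and 14.9% and the 24 h ALH points at or below 0.505%.

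*RpL24-like*, on 3R (11430740 to 11431582), is a relative of *RpL24* and of the yeast assembly factor Rlp24, which is held on the pre-60S particle before the ribosomal protein replaces it. It overlaps *Dtd* on the other strand. Its share of the pair in NSC-like cells was 33.2% and 24.2% at stage 17 against 7.58% and 7.19% at 24 h ALH, and in neuron-like cells 20.9% and 17.8% against 9.52% and 8.22%. The stages did not overlap in these classes, nor in the other 4. Its share was 32.8% and 28.2% against 8.48% and 8.08% in the *hdc*, *goe*, *Thor* cluster, while muscle-like cells stood closest together, at 10.2% and 9.35% against 5.14% and 7.30%. Its level in NSC-like cells, 1864 and 1212 against 373 and 392, gave a difference of 1.73 ± 0.23 (adjusted p = 0.0018, edgeR), which passed in all 19 alternatives (1.16 to 2.00). In neuron-like cells it was 438 and 221 against 228 and 211, libraries that overlapped, with 0.65 on the log2 scale (adjusted p = 0.182), and the interaction did not pass (0.79 ± 0.32, adjusted p = 0.108).

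*RpL34a* and *RpS14b* moved the other way. *RpL34a* made up 15.4% and 14.2% of its pair with *RpL34b* in NSC-like cells at stage 17 against 24.4% and 23.9% at 24 h ALH, and 15.1% and 14.9% against 21.1% and 22.2% in neuron-like cells. Its level in NSC-like cells was 604 and 547 against 1139 and 1216, and it fell by 1.28 ± 0.20 (adjusted p = 0.00347, edgeR). The adjusted p of *RpL34a* was 0.0609 without 24 h ALH library 1, 0.0871 without library 2 and 0.177 with cells thinned to 1000 UMIs.

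*RpS14a* and *RpS14b* are near-identical neighbours on X (7933742 to 7934677 and 7934898 to 7935792), so the assignment of their UMIs is uncertain. As counted, *RpS14b* was 12.9% and 13.1% against 21.7% and 24.4% in NSC-like cells and 12.6% and 12.5% against 19.8% and 21.2% in neuron-like cells. Its level fell by 1.69 ± 0.26 in NSC-like cells (adjusted p = 0.00339, edgeR) and by 1.75 ± 0.24 in neuron-like cells (adjusted p = 0.00963, and 0.0579 without 24 h ALH library 2).

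*RpS19b*, a copy of *RpS19a* known mainly from the germ line, made up a small share of its pair. It had 0 and 5 UMIs in NSC-like cells at stage 17, against 2879 and 1627 at 24 h ALH, or 78.4 and 80.5 CPM, which was 2.44% and 2.11% of the pair. Summed over libraries this was 6.12 times the stage 17 level (counting interval 2.62 to 18.8). The fitted difference was a fall of 2.82 ± 0.50 at stage 17 (adjusted p = 0.0052, edgeR, and 0.45 with cells thinned to 1000 UMIs). All 5 stage 17 UMIs of *RpS19b* came from library 2, so without that library the fit compared with 0 UMIs and its value of -13.56 is no measure of size, and without the shared barcodes it was -4.09. In neuron-like cells there were 0 and 0 UMIs at stage 17 against 10 and 6 at 24 h ALH. At 24 h ALH NSC-like cells had 33.6 times the neuron-like level (20.7 to 58.9), with a fitted difference of 5.31 ± 0.25 (adjusted p = 3.83e-13).

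*RpLP0-like* and *RpS15Ab* were the other minor partners with a measurable share. *RpLP0-like*, a relative of the yeast assembly factor Mrt4, overlaps *Jra* on the other strand. It had 208 and 172 CPM in NSC-like cells at stage 17 against 13.5 and 11.9 in neuron-like cells, a difference of 3.48 ± 0.30 (adjusted p = 2.34e-08, edgeR). At 24 h ALH the levels were 161 and 177 against 44.2 and 37.0, a difference of 2.31 ± 0.16. In neuron-like cells the gene fell at stage 17 by 1.60 ± 0.24 (adjusted p = 0.0112, and 0.0634 without 24 h ALH library 1). The interaction was 1.17 ± 0.32 (adjusted p = 0.0184), passed in 13 of 19 alternatives and was -0.018 with the marker gate. It did not pass without stage 17 library 2, 24 h ALH library 1 or 24 h ALH library 2 (adjusted p = 0.135, 0.575 and 0.366).

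*RpS15Ab* had 93.7 and 89.5 CPM in NSC-like cells at stage 17 against 257 and 246, and fell by 1.68 ± 0.22 (adjusted p = 0.00173, edgeR, but 0.0572 without 24 h ALH library 1 and 0.264 with cells thinned to 1000 UMIs). At 24 h ALH it was 2.37 ± 0.18 higher in NSC-like cells than in neuron-like ones. Its share of the pair with *RpS15Aa* was 4.52% and 2.56% against 6.22% and 5.84% in NSC-like cells and overlapped between the stages in neuron-like cells.

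**Figure D4:**
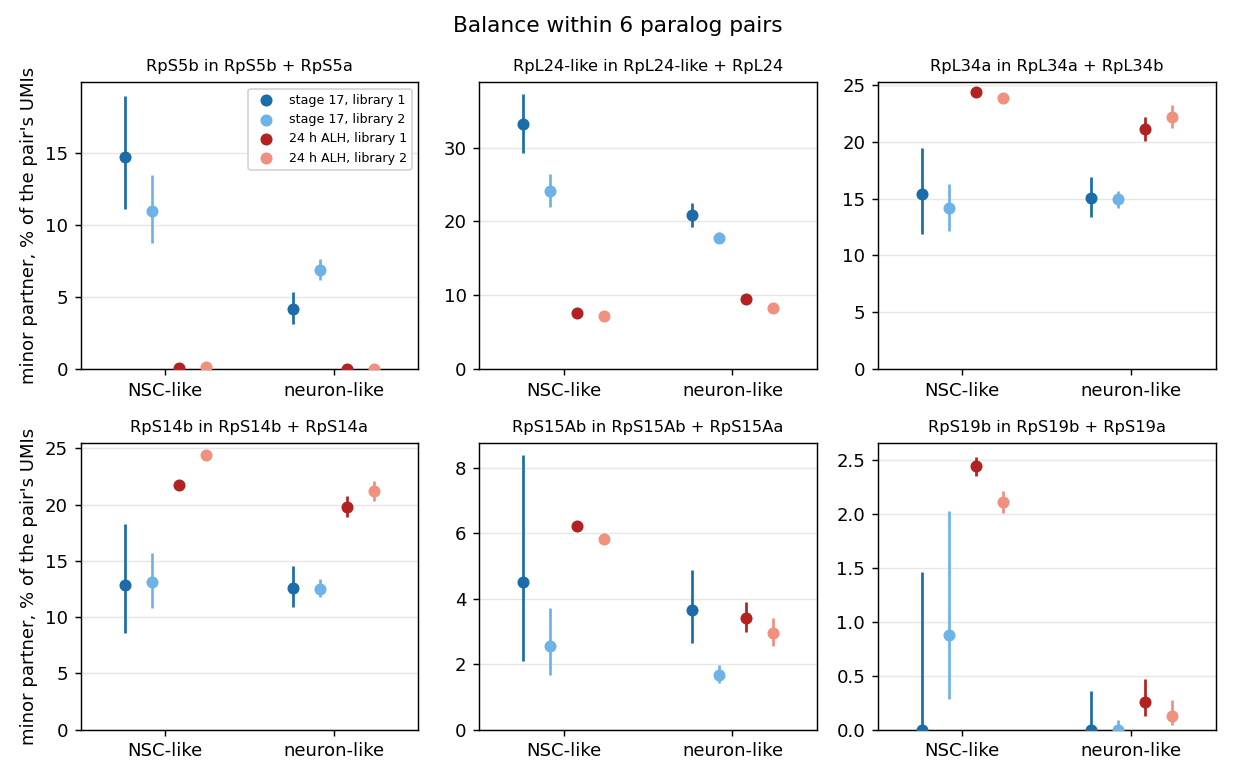
Share of the less expressed partner in 6 paralog pairs (y axes, percent of the pair's UMIs) in NSC-like and neuron-like cells; points are libraries and lines exact 95% intervals of counting error. *RpS5b* and *RpL24-like* have their stage 17 points on top, and *RpL34a* and *RpS14b* their 24 h ALH points.

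The remaining minor partners were at or near 0. These 7 were the ones that did not pass the filter in NSC-like cells: *RpL10Aa* had 0 UMIs in both classes of every library, and *RpS10a*, *RpS28a*, *RpS28-like*, *RpL37b*, *RpL22-like* and *RpL7-like* had at most 28 UMIs in any sum. *RpS10a* lies on the other strand from *tau*, and *RpL7-like* and *RpS28-like* each overlap another gene on the same strand. In neuron-like cells *RpS19b* also failed the filter, which left 84.

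Among themselves the genes kept their order most closely between the 24 h ALH libraries. Across the 84 genes tested in all comparisons, the rank correlation of levels was 0.98 between the NSC-like sums of the 24 h ALH libraries and 0.75 between those of stage 17. Between NSC-like and neuron-like sums of the same library it was 0.92 and 0.87 at stage 17, then 0.94 and 0.93 at 24 h ALH. These values are across genes of the same libraries, which are not independent, and share depth and chemistry. Small-subunit genes made up 37.4% to 41.4% of the ribosomal protein UMIs in the 8 sums, and the 5 most abundant genes of a sum 9.45% to 11.2%, so no few genes carried the shares.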

How the data were processed

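The authors deposited counts, whole UMIs per gene and called cell from 10x 3′ libraries, made with Cell Ranger (3.0.2 in the matrix headers, another version in the methods) on dm6 per the submitters' notes. Cells kept had 200 to 6000 genes and no more than 5% mitochondrial UMIs. Clusters were found in Seurat 5.3.0 (2000 variable features without the ribosomal protein genes, CCA, 30 dimensions, resolution 0.5). A cluster was named when at least 3 markers were detected in 25% of its cells and its list led the others by 0.5 on the log2 scale, with no other list having more of the 10 leading genes. This was set with clusters in view, and names may differ from the study's. Scrublet (scanpy 1.11.5) called 5, 8, 15 and 11 doublets, which were kept.

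UMIs were added up within each class of each library, and edgeR 4.0.16 was run on these sums (TMM, filterByExpr, robust quasi-likelihood, Benjamini-Hochberg over all genes, adjusted p under 0.05), with DESeq2 1.42.0 as an alternative. The fits were also run on simulated counts with the same spread in every library. The real NSC-like sums differ in spread between the stages, so that run gives no check of the calls reported here. The labels call the libraries biological replicates and do not name the animals pooled. The p-values between stages measure the spread between these libraries. With the library as a block, those between classes and of the interaction measure how the class difference varies from library to library. Genes named are all paralogs, per comparison up to 4 with the largest rise and 4 with the largest fall past the threshold without overlap, and genes fixed by role. Of the neighbours in that rule, *RpS21* matched the symbol rule and *oho23B* was not analysed here. Members and lists were chosen with earlier results of these data known. Identifiers were placed with the annotation of dm6, 1 of 92 by symbol.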

Additional observations from a re-analysis of the deposited data

Results flagged for a closer look

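*RpLP0-like* was the gene whose excess in NSC-like over neuron-like cells was itself different between the stages, by the interaction test (1.17 on the log2 scale, adjusted p = 0.0184, edgeR). The class difference was 3.48 at stage 17 and 2.31 at 24 h ALH. It rests on 20 and 50 UMIs of *RpLP0-like* in the stage 17 NSC-like sums and on 16 and 95 in the neuron-like sums. No other ribosomal protein gene passed this test, and groups of 2 libraries are too small to look for a library that stands apart.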

How the results depend on the processing

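The count of genes past the threshold between stages in NSC-like cells (25) was 43 with DESeq2, 59 with no filter, 14 with library size alone, 5 with cells thinned to 1000 UMIs, 79 with the marker gate, 7 with no maximum of genes, 7 with the 10% mitochondrial limit, 38 without shared barcodes, 7 without the deepest cells, and 4 to 71 leaving out 1 library. In neuron-like cells (33) it was 2 to 81 leaving out 1 library. Between classes, leaving out 1 library gave 44 to 85 at stage 17 and 18 to 85 at 24 h ALH. For the interaction (1) it was 2 with DESeq2, 3 with no filter, 5 with library size alone, 2 with upper-quartile factors, 2 scaled without these genes, 0 with thinned cells, 10 with the marker gate, 2 with the 10% mitochondrial limit, 2 without shared barcodes, 2 without the deepest cells, and 0 to 59 leaving out 1 library. Its median (-0.25) became 0.050 with DESeq2, 0.44 with library size alone, 0.24 with upper-quartile factors, 0.010 scaled without these genes, and -0.43 to 0.0036 leaving out 1 library. Scaling moved the median of all genes in the interaction from -0.14 to 0.52. The number passing between stages in NSC-like cells among all genes moved too. It was 2454 of 7241 in the main fit, 2705 of 7241 with DESeq2 and 3343 of 10785 with no filter. With library size alone it was 2313 of 7241, and 162 of 2356 with thinned cells. The marker gate gave 4690 of 7841, and no maximum of genes 2137 of 7127.

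The stage difference in share (-5.43 points in NSC-like, -6.25 in neuron-like cells) was -14.4 and -8.81 with the marker gate, and in NSC-like cells -4.32 with no maximum of genes and -4.63 without the deepest cells. *RpLP0-like* in the interaction was -0.018 with the marker gate. *RpL40* between stages in neuron-like cells (-0.03) was 0.0017 with DESeq2, 0.0019 scaled without these genes, and -0.64 to 0.41 leaving out 1 library. The balance of *RpS15Ab* in neuron-like cells was -1.51 to 0.46 points leaving out 1 library, and that of *RpLP0-like* 0.034 with thinned cells and 0.106 with the marker gate. The cause was not tested.

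Same-numbered libraries deviated from their stage means with correlations of -0.03 (NSC-like) and 0.05 (neuron-like). These values cannot decide whether the numbers pair the libraries, because those of stage 17 also differ in chemistry. The labels do not state a pairing. With the replicate block, 32 genes passed in NSC-like and 31 in neuron-like cells. With no replicate block the interaction gave 0, and the class counts were 79 at stage 17 and 85 at 24 h ALH. Shared barcodes and deepest cells were alternatives chosen after seeing the data. The 26 stage 17 NSC-like cells per library limit low levels.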
